A study of Homo sapiens with 4 samples.

Results

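The genes examined here encode 9 transcription factors known from squamous epithelium: TP63, SOX2, KLF4, KLF5, NOTCH1, GRHL2, TFAP2A, TFAP2C and ZNF750. Their poly(A) site clusters (PACs, groups of neighbouring 3′ ends) were those whose dominant site, the position with the most tags, lay in the GENCODE 44 span of the gene on the same strand. This rule gave 8 PACs of 6 genes, of 17627 PACs and 11264 genes with a PAC in all. All 8 PACs were listed in each KYSE30 library, and 7 in each TE-1 library. The only PAC of TP63 had its dominant site 4 nt past the annotated end of the gene and so fell outside the rule. It is described apart, with gene spans extended by 24 nt, a choice made after seeing the data. No PAC was listed in the span of GRHL2 or ZNF750 in any of the 4 libraries.

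KYSE30 and TE-1 are established lines of esophageal squamous cell carcinoma (ESCC). Polyadenylated RNA was read from its 3′ ends by PAS-seq in cells of each line given 20 mM l-lactate for 24 h or PBS, and the study asked whether lactate alters alternative polyadenylation. There was 1 library for each condition and line. The cell line tags of both control samples read KYSE32 and TE-3. The sample titles and the methods of the study name KYSE30 and TE-1, which were used here. Between 7174991 and 10393799 tags lay behind the libraries, and the lowest listed value was between 1.06 and 1.12 TPM (tags of the PAC scaled to 1000000 tags of the library). Each tag marks a 3′ end and may be a PCR copy. Since a transcript is read at its end only, TPM has no length term, and the levels of different genes can be compared roughly. A gene with a site just past its annotated end is undercounted by the rule, as was seen for MUC13. A PAC that is not listed was below the limits set upstream and is not a measured 0.

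In stratified squamous epithelium, TP63 keeps the basal, proliferating layer in place, and SOX2 works beside it in the esophageal lineage. The AP-2 factors TFAP2A and TFAP2C open and activate epidermal and surface ectoderm genes, and the zinc finger factors KLF5 and KLF4 act in the basal and the maturing layers respectively. NOTCH1 is a membrane receptor whose freed intracellular part becomes a transcription factor that drives basal cells into differentiation, where KLF4, GRHL2 and ZNF750 switch on barrier genes. The 3′ end of each mRNA is set by cleavage some way past a hexamer, usually AAUAAA, and UGUA elements upstream of it bind CFIm25, which is NUDT21.

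The cleavage sites themselves showed which ends of these genes were read. The last 30 bases before each dominant site are given below, 5′ to 3′ as RNA sense in DNA letters of GRCh38, with AATAAA or, where it is absent, TATAAA in capitals. The intronic TFAP2A sequence also holds ATTAAA, left in lower case. They are shown because the level of each listed member is a count of tags in the PACs that hold these positions.
TP63, chr3:189897251-189897280, plus strand: aaAATAAATAAAaactaattaagaaattgt
SOX2, chr3:181714405-181714434, plus strand: ataAATAAAtttttgaaatatggacactga
TFAP2A 3′ UTR, chr6:10397045-10397074, minus strand: cccagataAATAAAtatttgatacgcttta
TFAP2A intron, chr6:10406134-10406163, minus strand: tagaAATAAAgtttactgaattaaatgcta
TFAP2C, chr20:56639252-56639281, plus strand: tatAATAAAagtattcttgttagaatctga
KLF4, chr9:107484853-107484882, minus strand: ttttaAATAAAcctataatattttatctga
KLF5, chr13:73077512-73077541, plus strand: tttggaaAATAAAaagtgcctaaaagatgt
NOTCH1 distal, chr9:136494444-136494473, minus strand: gatttgcAATAAAaatgatactgatggtga
NOTCH1 proximal, chr9:136495734-136495763, minus strand: TATAAAaTATAAAcaaagattcatgattta

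AATAAA stood within 50 nt upstream of the dominant site in 7 of the 8 PACs, against 66.4% of all PACs placed on the genome. It was also present before the TP63 site, in 2 overlapping copies. The exception was the proximal NOTCH1 site, which held neither AATAAA nor ATTAAA there and carried 2 copies of TATAAA. This variant was found in the same window before 6.73% of all PACs, and either of the first pair before 83.1%. TGTA, the DNA form of UGUA, was present on the transcribed strand in the last 100 nt before 6 of the 8 sites, against 57.0% of all PACs. TFAP2C had 3 copies. KLF4, KLF5, distal NOTCH1 and both TFAP2A sites had 2 each, while SOX2, proximal NOTCH1 and TP63 had 0 in that window.

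By annotation, 7 of the 8 PACs ended in a 3′ UTR. The SOX2 site lay in the single exon of SOX2-201, 2 nt before its end, inside the longer SOX2-OT gene on the same strand. The KLF4 site was in exon 5 of 5, 1 nt before the gene end, and the TFAP2C site in exon 7, 2 nt before it. The KLF5 site was at the very end of the gene (KLF5-205), 3 nt past the end of KLF5-201. Both NOTCH1 sites were in exon 34, the last exon of NOTCH1-204, 337 and 1627 nt past the stop codon and 1290 nt apart. The 3′ UTR PAC of TFAP2A was broad, 1191 nt long within exon 7 of TFAP2A-203. The other TFAP2A PAC was a single position in an intron, 2 nt past the end of the retained-intron transcript TFAP2A-210 and 9089 nt upstream of the 3′ UTR site. The TP63 site followed the last exon of TP63-201.

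Between the lines, the difference that stood out was presence against absence for SOX2 and TP63. SOX2 was listed at 168 TPM in KYSE30 with PBS and 220 TPM with l-lactate, and in neither TE-1 library. In KYSE30 it was the highest of the 9 genes, above 91.3% and 93.4% of listed genes in the PBS and l-lactate libraries. TP63 was listed at 24.2 TPM (180 tags) and 32.6 TPM (234 tags) in the same libraries, and not in TE-1. No fold can be given against an unlisted gene. The genes listed in both KYSE30 libraries and in no TE-1 library, with spans extended by 24 nt, were 3.13% of 9435 tested. In bulk RNA, fewer cells with a transcript and less of it per cell cannot be told apart.

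The AP-2 factors went opposite ways. TFAP2C was at 105 and 92.8 TPM in KYSE30 (PBS and l-lactate) and at 35.3 and 51.8 TPM in TE-1. TFAP2A was at 55.9 and 59.9 TPM in KYSE30 and at 106 and 100 TPM in TE-1. In KYSE30 TFAP2C exceeded TFAP2A in both libraries, and in TE-1 TFAP2A exceeded TFAP2C in both. The TFAP2C level in KYSE30 was 2.97 times that in TE-1 with PBS (95% counting interval 2.62 to 3.37) and 1.79 times with l-lactate. The TFAP2A level in TE-1 was 1.89 times that in KYSE30 with PBS (1.69 to 2.12) and 1.68 times with l-lactate (1.49 to 1.89).

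**Figure D1:**
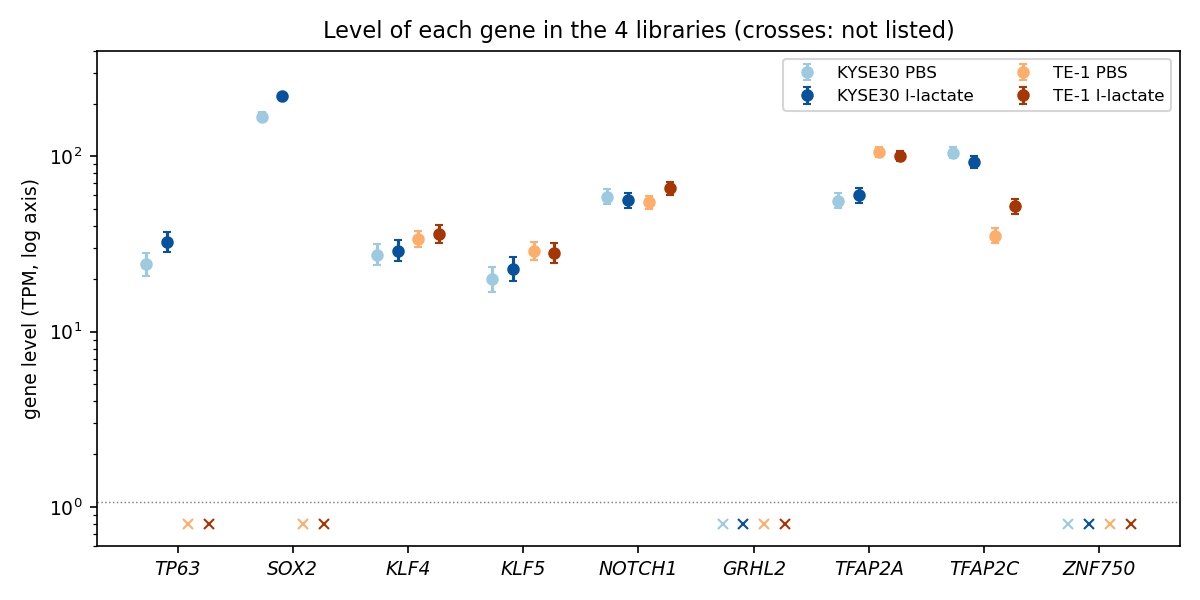
Level of each gene in TPM (log axis) in the 4 libraries, with 95% counting intervals; crosses mark libraries in which the gene was not listed, below the dotted line at the lowest listed value. SOX2 and TP63 have values in KYSE30 alone, TFAP2A and TFAP2C are placed in opposite order in the lines, and GRHL2 and ZNF750 have no value.

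The Krüppel-like factors and NOTCH1 differed less. KLF5 was at 19.9 and 22.9 TPM in KYSE30 and at 28.9 and 28.2 TPM in TE-1. KLF4 was at 27.5 and 29 TPM in KYSE30 and at 33.8 and 36.1 TPM in TE-1. Both were higher in TE-1 in each library, by small margins. NOTCH1, with both PACs summed, was at 58.9 and 56.3 TPM in KYSE30 and at 54.7 and 65.7 TPM in TE-1. Here the lines overlapped.

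An additive limma fit with line and treatment as terms tested these differences on log2(TPM + 1), with Benjamini-Hochberg adjustment over 9132 genes. Of the 5 members listed in all 4 libraries, 4 passed an adjusted p of 0.05 between the lines, 3 higher in TE-1 and 1 higher in KYSE30. Most genes did: 73.7% of those tested passed, 36.8% in each direction, so the count alone does not set these genes apart. The difference, TE-1 minus KYSE30, was -1.19 ± 0.14 (SE) for TFAP2C, with an adjusted p from limma of 2.16e-05. For TFAP2A it was 0.82 ± 0.09 with an adjusted p from limma of 1.06e-05. It was 0.40 ± 0.14 for KLF5, with an adjusted p from limma of 0.021. The call for KLF4 was marginal, at 0.30 ± 0.12 with a limma adjusted p of 0.0443, and was lost without the mean-variance trend, at 0.0582. NOTCH1 did not pass, with a difference of 0.06 (95% interval -0.18 to 0.30) and a limma adjusted p of 0.642. SOX2 and TP63 reached the filter on mean TPM through KYSE30 only and enter the fit with a set value of 0 in both TE-1 libraries, which has no measured spread, so neither a fold nor a p is given for them.

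The SE in this fit rests on 1 residual degree of freedom per gene, moderated across genes, and the 2 libraries of a line differ in treatment. A line-specific response to l-lactate therefore counts as error, and no source used here says that the libraries came from separate cultures, so the p-values measure the spread between these samples.

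**Figure D2:**
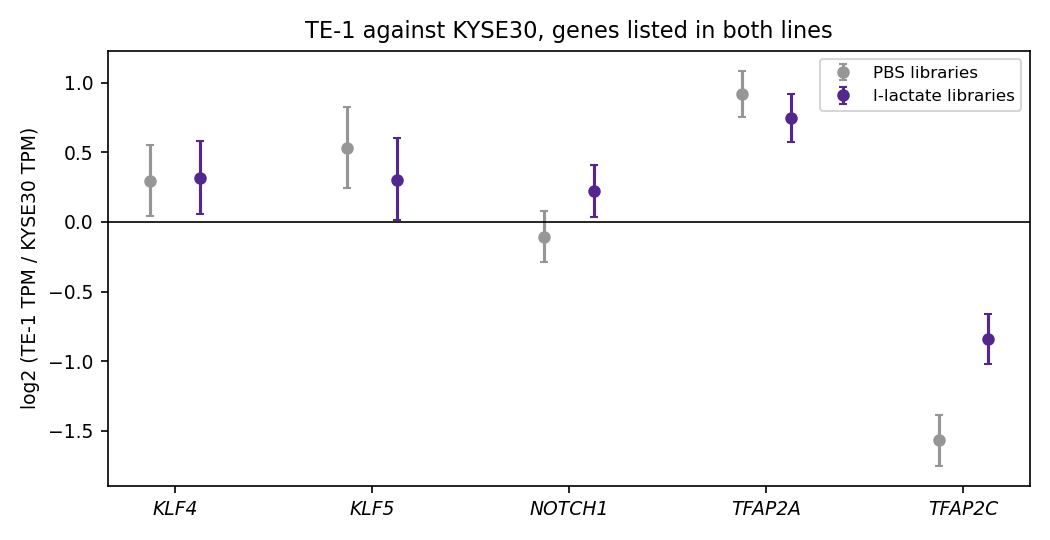
Log2 ratio of the TPM in TE-1 to that in KYSE30 for the 5 genes listed in all 4 libraries, in the PBS libraries (grey) and the l-lactate libraries (purple), with 95% counting intervals. TFAP2A lies at 0.92 and 0.75, TFAP2C at -1.57 and -0.84, and NOTCH1 on both sides of 0.

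Within KYSE30 with PBS the order of levels was SOX2, TFAP2C, NOTCH1, TFAP2A, KLF4, TP63 and KLF5. The counting intervals of NOTCH1 (53.5 to 64.6 TPM) and TFAP2A (50.6 to 61.5 TPM) overlapped, as did that of TP63 (20.8 to 28.1 TPM) with those of KLF4 (23.8 to 31.5 TPM) and KLF5 (16.9 to 23.4 TPM). In TE-1 with PBS, TFAP2A led and NOTCH1 followed. TFAP2C (31.8 to 39.1 TPM), KLF4 (30.3 to 37.5 TPM) and KLF5 (25.7 to 32.3 TPM) came last with overlapping neighbours.

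Other squamous genes were compared in the same way. Of 24 basal squamous genes (basal keratins and hemidesmosome components among them), 9 were listed in all 4 libraries and reached the filter, and 7 of these were higher in KYSE30 and 2 in TE-1, where 36.8% of all genes passed in each direction. A further 6 reached the filter through KYSE30 alone and 1 through TE-1 alone. With these included, the median fitted difference was -3.41 on log2(TPM + 1), TE-1 minus KYSE30, against 0.0011 over all genes tested, but genes unlisted in a line enter such a median at a size that depends on the added constant. COL17A1, a hemidesmosome collagen, was at 140 and 136 TPM in KYSE30 and not listed in TE-1. KRT15, a basal keratin, was at 73.4 and 93.5 TPM and likewise listed in KYSE30 alone. The opposite was seen for KRT17, a keratin of activated basal cells, at 245 and 187 TPM in TE-1 and not listed in KYSE30. TRIM29 was at 9.43 and 12.8 TPM in KYSE30 against 62.1 and 72.9 TPM in TE-1, and the NOTCH ligand gene JAG2 at 12.9 and 10.2 against 22.9 and 20.8 TPM. KRT5, KRT14, DSG3 and PKP1, also of this list, were listed in no library of either line. Keratin genes have near-identical copies, and how reads with several matches were counted is not given in the sources used here, so single keratin values are uncertain.

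Of 28 squamous differentiation genes, 6 were listed in all 4 libraries and reached the filter. Of these, 4 were higher in KYSE30 and 2 in TE-1, where 36.8% of all genes passed in each direction. Another 8 reached it through KYSE30 alone, so that the median of the list is set by the added constant and is not given. KRT13, the keratin of the suprabasal esophagus, reached 728 and 684 TPM in KYSE30. The cornified envelope genes SPRR3 (242 and 283 TPM) and IVL (61.9 and 53.0 TPM) were also listed there, and none of the 3 was listed in TE-1. Higher in TE-1 were CSTB, a protease inhibitor, at 129 and 119 TPM against 80.8 and 92.3 TPM, and KRT10, at 160 and 156 TPM against 130 and 118 TPM. In all, 8 of the 24 basal and 8 of the 28 differentiation genes were listed in KYSE30 alone, whatever their level. Among genes that reached the filter, in spans without extension, 6 of 16 basal and 8 of 15 differentiation genes were listed in KYSE30 alone. Over all genes that reached it, with spans extended by 24 nt, 3.13% were listed in both KYSE30 libraries and in no TE-1 library.

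Genes of the NOTCH pathway were found in both directions. Of 33 components and targets in the list, 26 could be tested, and 25 of these were listed in all 4 libraries. Of the 25, 13 were higher in KYSE30, 9 were higher in TE-1 and 3 did not pass. NRARP, unlisted in 1 library, was also called higher in TE-1, at a size that depends on the added constant. With it included, the median was -0.56. The background was 36.8% of all genes in each direction, and the count higher in TE-1 was close to that share. The ligand gene JAG1 was at 15.4 and 21.2 TPM in KYSE30 and at 1.83 and 2.83 TPM in TE-1. The target genes HES1 (109 and 97 against 34.3 and 33.7 TPM) and HEY1 (24.9 and 34.6 against 8.37 and 9.45 TPM) were also higher in KYSE30. NRARP, a target and feedback inhibitor, was at 28.2 and 28.8 TPM in TE-1 and at 5.02 TPM in the l-lactate library of KYSE30, and was not listed in its PBS library. The gamma-secretase gene PSEN2 and the ligand gene DLL3 were higher in TE-1, with differences of 1.44 and 1.43.

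Among 25 paralogues of the 9 genes, 13 were listed in all 4 libraries and reached the filter. Of these, 4 were higher in KYSE30, 4 higher in TE-1 and 5 not past the threshold, against the same 36.8% in each direction. A further 2 reached the filter through KYSE30 alone. With these included, the median fitted difference was -0.01. SOX15, a SOX gene of epithelium, was at 115 and 104 TPM in KYSE30, and TP73, a p53 family gene, at 22.5 and 17.4 TPM. Neither was listed in TE-1. SOX7 was at 32.2 and 36.1 TPM in KYSE30 against 3.37 and 3.07 TPM. GRHL1, a paralogue of GRHL2 and the only one of the list's grainyhead-like genes with a PAC, was at 18.9 and 15.7 TPM in KYSE30 against 2.40 and 1.89 TPM. In the other direction, KLF13 was at 1.48 and 1.67 TPM in KYSE30 against 19.8 and 25 TPM in TE-1. NOTCH2 had 35.3 and 32.3 against 83.9 and 79.2 TPM, and TFAP4 had 36.9 and 38.9 against 91.3 and 81.5 TPM.

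Markers of other cell types moved with the line as well. Of 25 columnar epithelial genes, 9 could be tested, and 3 of these were listed in TE-1 alone. Another 5 were listed in all 4 libraries, 3 higher in KYSE30 and 2 in TE-1, where 36.8% of all genes passed in each direction. The list summed to 5161 and 5081 TPM in KYSE30 and to 1926 and 1875 TPM in TE-1. MUC13 (20.9 and 20.4 TPM) and HNF4A (9.43 and 12.9 TPM) were listed in TE-1 alone. With spans extended by 24 nt, MUC13 rose to 339 and 373 TPM in TE-1 and was still not listed in KYSE30. The sums of the list were then 5168 and 5089 TPM in KYSE30 and 2244 and 2227 TPM in TE-1. KRT19 was at 1699 and 1574 TPM in KYSE30 and at 2.95 TPM in 1 TE-1 library, EPCAM at 563 and 635 against 30.7 and 36.4 TPM, and KRT8 at 2154 and 2229 against 1004 and 969 TPM. CDX2, TFF1 and VIL1 were listed in no library. Of 15 mesenchymal genes, 6 reached the filter, and 3 of these were listed in all 4 libraries. Among the 3, SNAI2 was higher in KYSE30, CDH2 was higher in TE-1 and 1 did not pass, where 36.8% of all genes passed in each direction. SPARC reached the filter through KYSE30 alone and ZEB1 through TE-1 alone. FN1 was at 128 and 74.1 TPM in KYSE30 and at 2.60 TPM in TE-1 with PBS, and was not listed in TE-1 with l-lactate. The list summed to 183 and 138 TPM in KYSE30, most of it FN1, and to 68.7 and 74.9 TPM in TE-1. VIM, gained with spans extended by 24 nt, was at 5.66 and 6.69 TPM in KYSE30 and at 991 and 982 TPM in TE-1, and brought those sums to 189 and 145 against 1060 and 1056 TPM. Of 9 leukocyte and endothelial genes, PTPRC and PECAM1 among them, 8 were listed in no library, and CDH5 was at 16.2 and 11.2 TPM in KYSE30 alone. The part of these markers in the line differences of the 9 genes was not tested.

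**Figure D3:**
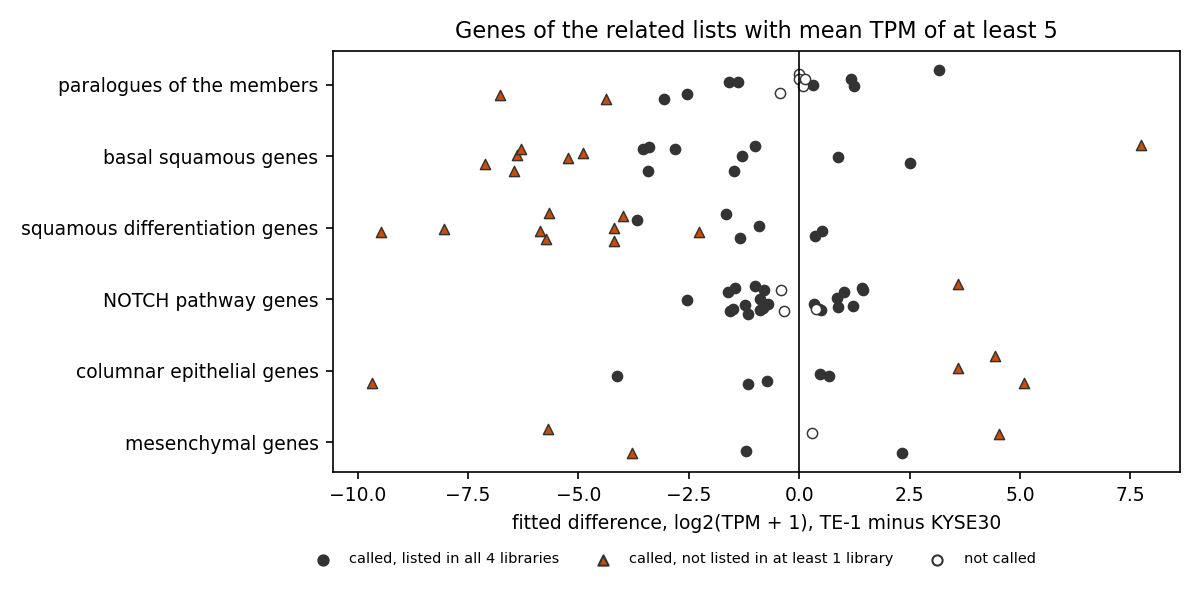
Fitted difference between the lines on log2(TPM + 1), TE-1 minus KYSE30, of each gene with a mean TPM of at least 5, in 6 of the lists (the leukocyte and endothelial list had a single such gene); filled symbols passed the limma test, and triangles were not listed in at least 1 library, so that their position depends on the added constant. Among genes listed in all 4 libraries, 7 of 9 basal and 4 of 6 differentiation genes lie left of 0, and those of the NOTCH pathway lie on both sides. Over all genes tested, 36.8% passed in each direction.

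The l-lactate comparison asked whether these genes responded to treatment. In the additive fit none of the 5 members listed in all 4 libraries passed, and 2 of 9132 genes did (0.0219%), both higher with l-lactate. They were PTMA and the antisense gene IGFL2-AS1, which are no members. At an unadjusted p under 0.05 there were 959 genes (10.5%), with no member among them. The fitted l-lactate differences on log2(TPM + 1) were 0.18 ± 0.14 (SE) for TFAP2C, 0.10 ± 0.11 for NOTCH1, 0.08 ± 0.12 for KLF4, 0.08 ± 0.14 for KLF5 and 0.01 ± 0.09 for TFAP2A. The 95% intervals reached from -0.13 to 0.50 for TFAP2C and from -0.19 to 0.21 for TFAP2A. No fitted value is given for SOX2 and TP63, since the 2 TE-1 libraries hold no measured value of either. No gene of the 7 lists passed in either direction.

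Within a line there is no replicate, so the ratio of l-lactate to PBS has a counting interval only. In KYSE30, SOX2 was 1.31-fold (1.21 to 1.41) and TP63 1.35-fold (1.10 to 1.64) the PBS level in the single library of each condition. TFAP2C was 0.886-fold (0.798 to 0.984). The other 4 listed genes, KLF5 at 1.15-fold (0.913 to 1.44) among them, had intervals that held 1. Over all 9067 genes compared in KYSE30, 12.5% had an interval above 1 and 11.3% an interval below 1, so that such intervals are common between single libraries.

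In TE-1, TFAP2C was 1.47-fold (1.28 to 1.69) and NOTCH1 1.20-fold (1.07 to 1.35) the PBS level, and KLF4, KLF5 and TFAP2A had intervals that held 1. The background in TE-1 was 18.9% above 1 and 11.3% below 1 of 9058 genes. With PACs summed by gene, no member moved by 1.5-fold either way in either line, where 4.48% of genes in KYSE30 and 4.53% in TE-1 did. Taken alone, the small proximal PAC of NOTCH1 was 1.54-fold (1.08 to 2.2) in TE-1 and 1.19-fold (0.73 to 1.94) in KYSE30. Of the 5 genes listed in all 4 libraries, 4 had ratios on opposite sides of 1 in the lines, as did 44.2% of 8691 genes. For TFAP2C the intervals lay on opposite sides of 1. This difference between the lines was not tested, since it is the only residual in the design.

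**Figure D4:**
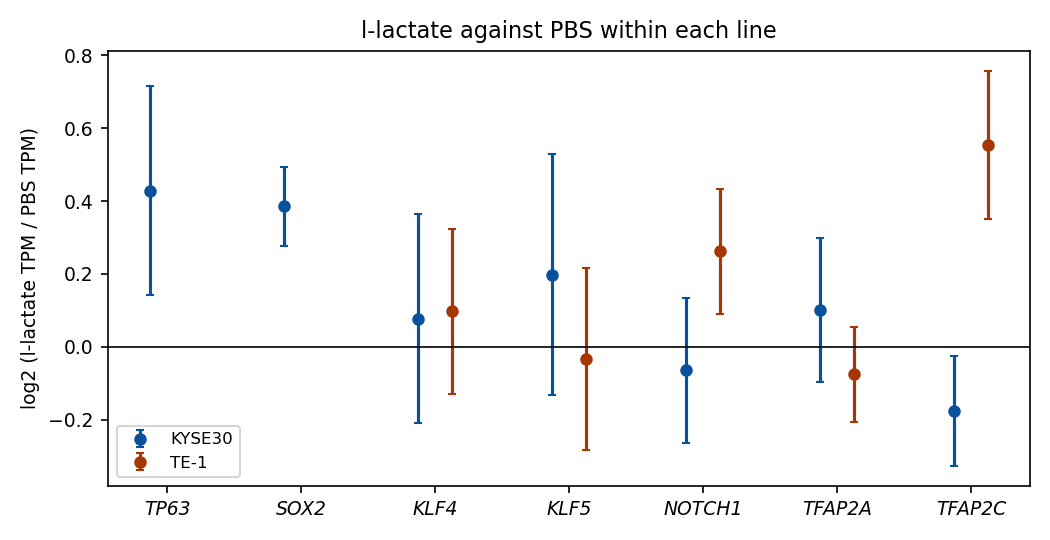
Log2 ratio of the TPM with l-lactate to that with PBS in KYSE30 (blue) and TE-1 (brown) for each listed gene, with 95% counting intervals. SOX2 (0.39) and TP63 (0.43) lie above 0 in KYSE30, and TFAP2C lies at -0.17 in KYSE30 and 0.55 in TE-1.

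Site use could be compared in few of the genes. NOTCH1 alone had 2 PACs in its 3′ UTR. Its proximal PAC, the site with TATAAA in place of AATAAA, held 34 of 437 tags in KYSE30 with PBS, or 7.78% (Wilson 95% interval 5.62 to 10.7), and 39 of 404 with l-lactate, or 9.65% (7.14 to 12.9). In TE-1 it held 59 of 569 tags with PBS, or 10.4% (8.12 to 13.1), and 74 of 556 with l-lactate, or 13.3% (10.7 to 16.4). The proximal share was thus 1.87 and 2.94 percentage points higher with l-lactate in KYSE30 and TE-1, with overlapping intervals in each line. The distal site kept at least 86.7% of tags in every library.

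On the log2 odds of distal tags, a limma fit over 1949 genes with several 3′ UTR PACs gave NOTCH1 a difference of -0.48 ± 0.17 between the lines (limma adjusted p = 0.162), where 15.6% of genes passed. With l-lactate the difference was -0.37 ± 0.17 (limma adjusted p = 0.559). No gene passed for l-lactate by limma (0%), and 140 genes (7.18%) had an unadjusted p under 0.05.

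The intronic PAC of TFAP2A held 29 of 415 tags (6.99%) in KYSE30 with PBS and 30 of 430 (6.98%) with l-lactate, against 144 of 1100 (13.1%) and 88 of 851 (10.3%) in TE-1. Both TE-1 shares were above both KYSE30 shares. In a limma fit of intronic use over 274 genes the log2 odds differed by 0.80 ± 0.27 between the lines, which did not pass (limma adjusted p = 0.145), while 35% of those genes did. The l-lactate difference was -0.19 ± 0.27 (limma adjusted p = 0.827), with 0% of genes called by limma and 3 (1.09%) at an unadjusted p under 0.05. This fit and the next were added after the data were seen.

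The KLF4 PAC held tags up to 121 nt upstream of its dominant site. The share of tags at the dominant site was 76.0% (69.7 to 81.3) with PBS and 83.2% (77.5 to 87.7) with l-lactate in KYSE30, and 64.4% (59.2 to 69.2) and 71.6% (66.3 to 76.3) in TE-1. It was higher with l-lactate by 7.19 and 7.18 percentage points, and lower in TE-1 than in KYSE30 by over 11 points in either condition. Neither difference passed in a limma fit of dominant site use over 8120 PACs. The log2 odds differed by 0.56 ± 0.17 with l-lactate (limma adjusted p = 0.873) and by -0.88 ± 0.17 between the lines (limma adjusted p = 0.442). No PAC passed in either contrast by limma (0%). At an unadjusted p under 0.05 there were 378 PACs (4.66%) for l-lactate and 754 (9.29%) for the lines, and that of KLF4 was among the latter.

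**Figure D5:**
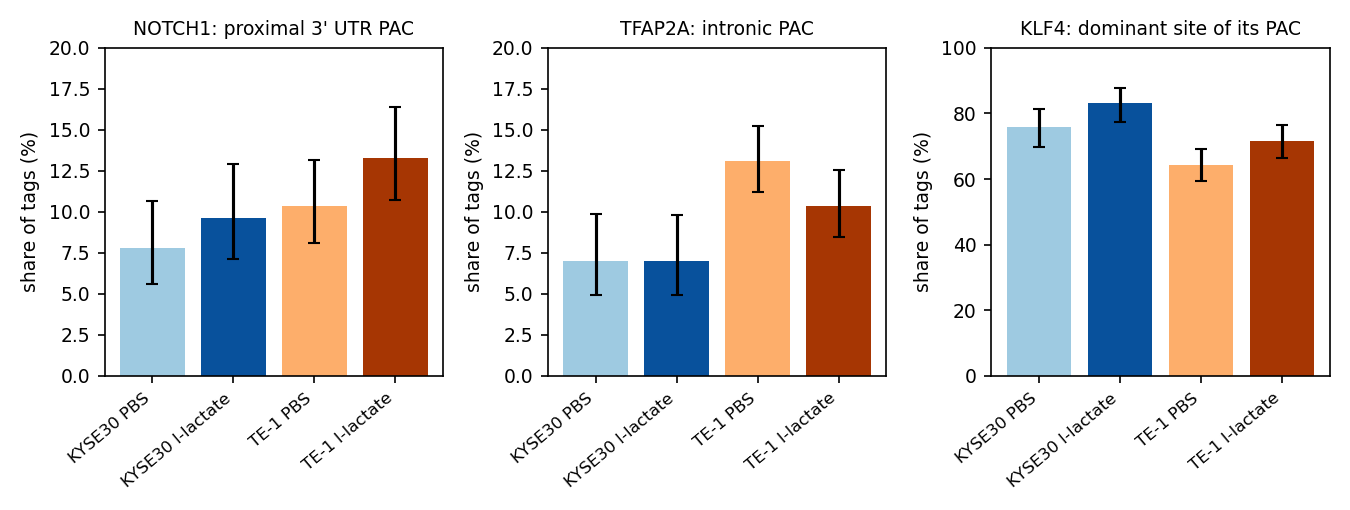
Share of tags (%) at the proximal PAC of NOTCH1, the intronic PAC of TFAP2A and the dominant site of the KLF4 PAC in the 4 libraries, with Wilson 95% intervals; each vertical axis starts at 0 and the scales differ. Shares run from 7.78 to 13.3% for NOTCH1, 6.98 to 13.1% for TFAP2A and 64.4 to 83.2% for KLF4.

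The position of the dominant site was the same with and without l-lactate in all 15 comparisons of a member PAC within a line, and for TP63 in KYSE30 (a shift of 0 nt). The deposited quantile positions that bound the bulk of a PAC also stayed in place, except in the broad TFAP2A 3′ UTR PAC in KYSE30. There the upstream bound moved by -395 nt and the downstream bound by -181 nt with l-lactate, negative being upstream, and both moved by 0 nt in TE-1. The dominant site of that PAC held 51.0% and 47.2% of its tags in KYSE30 with PBS and l-lactate, and 50.5% and 49.3% in TE-1.

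The genes with the pattern most like TP63 and SOX2 were found by the distance between centred log2(TPM + 1) values over the 4 libraries, among 6009 genes with a mean TPM of at least 20. For TP63 these were TNFRSF21 (distance 0.189), RNF144B (0.228), CGN (0.239), GTSF1 (0.395) and CRYBG1 (0.399). TNFRSF21 was at 224 and 257 TPM in KYSE30 and at 7.02 and 7.91 TPM in TE-1. For SOX2 they included NLRP2 (0.380), SPRR3 (0.455), ESRP1 (0.498) and TMC4 (0.524), none of them listed in TE-1. With 4 libraries the distance is set mainly by the gap between the lines. TP63 and SOX2 enter it with a set value of 0 in TE-1, so that this gap depends on the added constant. The genes named for TP63 were all listed in both TE-1 libraries, while TP63 was in neither.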

How the data were processed

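PAS-seq tags of 4 libraries were analysed. According to the methods of the study, HISAT2 placed the trimmed reads on GRCh38, CAGEr grouped their ends into PACs, and sites and PACs with low TPM were removed. Their versions, and the counting of reads with several matches, are not given in the sources used here. The submitters' processing notes name GRCh38.p14. The authors deposited 1 table per library with positions, TPM and dominant sites. These TPM are RPM values as deposited: the tags of a PAC scaled to 1000000 tags of the library. Steps between values gave 7425554 and 7174991 tags for KYSE30 with PBS and l-lactate, and 10393799 and 8468958 for TE-1. All values were whole tags within 0.0006 TPM.

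PACs were joined on their identifier across the 4 tables and given to GENCODE 44 genes by dominant site and strand, and gene levels were sums of TPM. An unlisted PAC was taken as 0 in the fits and filters, in the sums of lists and in the pattern distances. Limma 3.58.1 (R 4.3.3) was fitted to log2(TPM + 1) of genes with a mean TPM of at least 5, with line and treatment as terms and a mean-variance trend, and a call needed a Benjamini-Hochberg adjusted p of at most 0.05. Distal use was fitted as the log2 odds of distal tags, with 0.5 added, for genes with at least 2 3′ UTR PACs that each reached TPM 5 in a library. Counting intervals are exact conditional (ratios), exact Poisson (levels) or Wilson (shares) intervals at 95%. They cover counting error only, since PCR copies are not told apart. Alternatives changed the constant, scaling, filter, trend, PAC placement and measure of use. The fits were tested on simulated data with a set spread. Of 200 genes changed 1.5-fold, 93 were recovered for l-lactate and 77 for the lines, so changes of that size are often missed. At 2-fold, 195 and 196 of 200 were recovered. For distal use with odds changed 3-fold, 164 and 189 of 200 were recovered. Python 3.11.15, pandas 2.3.3, NumPy 2.4.6, SciPy 1.17.1 and matplotlib 3.10.9 were used.

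The 9 genes and the lists were chosen with earlier results of these data known. Genes named are the 9 members, the 3 genes of a list with the largest called difference each way between the lines, and the 5 nearest patterns of TP63 and SOX2. A few genes that this rule names are not reported here. Other genes named, such as VIM, GRHL1, CDH5 and those listed nowhere, were chosen after their values were seen.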

Additional observations from a re-analysis of the deposited data

Results flagged for a closer look

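The PAC of TP63 was picked up because it lay outside the data used by the rule, 4 nt past the annotated end of the gene. It was listed at 24.241 TPM in KYSE30 with PBS and at 32.613 TPM with l-lactate, and in neither TE-1 library. TFAP2C was picked up because its ratio of l-lactate to PBS was 0.886 in KYSE30 and 1.47 in TE-1, on opposite sides of 1. This difference between the lines was not tested.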

How the results depend on the processing

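The line is a term of every fit, which pairs the PBS and l-lactate libraries of a line. The labels carry no replicate numbers, so no other block could be fitted. Between the lines, the calls of TFAP2A, TFAP2C and KLF5 held under each alternative that gave a value, and KLF4 lost its call without the mean-variance trend (0.0582). With a mean TPM of at least 20, 2187 of 5810 genes were called higher in KYSE30. No member was called with l-lactate under any alternative run. The l-lactate difference of TFAP2A changed sign with median-of-ratios scaling, at -0.0111 (limma adjusted p = 0.982). Genes called higher with l-lactate by limma fell to 0 with a constant of 0.5, with that scaling, with no filter and with no trend. Higher and lower calls were 116 and 56 with a constant of 5, 27 and 8 with a mean TPM of at least 20, and 111 and 55 over genes listed in all 4 libraries, an alternative added after the data were seen. With 3′ UTR PACs alone, 1 gene was called lower. The prior degrees of freedom in limma, a measure of how far variances are pooled across genes, were 9.47 in the main fit. They were 363 with a constant of 5 and 21.0 with a mean TPM of at least 20. Over genes listed in all 4 libraries the variances were pooled in full. In the fits with 0 higher calls they ran from 3.35 to 7.99. The cause of the changes in calls was not tested. For distal use between the lines, calls higher in KYSE30 were 361 with a minimum TPM of 10. With PACs listed in all 4 libraries, they were 545, and 192 were higher in TE-1. With the TPM-weighted mean position they were 3 and 1. Distal calls with l-lactate were 44 higher and 59 lower with PACs listed in all 4 libraries, a fit in which variances were also pooled in full. NOTCH1 did not pass in any of these and had no value at a minimum TPM of 10. For TFAP2C, single contrasts gave -1.57 (PBS) and -0.841 (l-lactate) between the lines, and -0.175 (KYSE30) and 0.554 (TE-1) with l-lactate. The count test of edgeR was not run: the tables hold TPM, and the tags worked out from their steps served for intervals and log odds only. No library can be left out and tested, since 3 libraries leave no residual degree of freedom. Tags of 29 to 74 behind the smaller PACs of NOTCH1 and TFAP2A limit their shares.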
